A study of Mus musculus with 56 samples.

Results

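Ribosome biogenesis factor genes encode the proteins that make, cut, modify and fold ribosomal RNA and assemble it with ribosomal proteins. The set described here holds 40 genes, chosen by name as nucleolar processing factors and RNA polymerase I subunits. All 40 have a row in the deposited table of 24410 Ensembl gene IDs. The rule used no measured value, although the genes were listed with earlier results of these data known.

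The cells came from 1 male ApcMin/+ mouse, which carries a germline mutation of Apc, an inhibitor of Wnt signalling, and forms intestinal tumors. The mouse drank 2% dextran sulfate sodium (DSS), an agent that injures the colon lining, for 5 days from 10 weeks of age, and the labels give its age as 12 weeks. After digestion, 3 colon tumors were mixed and sorted into single cells negative for DAPI, CD31 and CD45 and positive for EpCAM and CD24. Their cDNA was kept only where a PCR of 32 cycles detected Lgr5, a marker of intestinal stem cells, and was sequenced by the Bead-seq method. All cells form 1 group, with no normal colon, untreated animal or other mouse beside them. They share 1 animal and 1 sort, so they are not replicates, and every relation across cells is given as a description with no p-value.

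The table holds 56 libraries. In 6 pairs the profiles were nearly the same, with Pearson's r from 0.957 to 0.992 against 0.782 for the next closest pair and a median of 0.590. Both libraries of a pair were combined by their mean, leaving 50 cells. Values are TPM, transcript levels scaled for transcript length and to the same total in each library, so read depth is unknown and a gene at exactly 0 is listed at 0. A gene at no less than 1 TPM counts as seen. From 1316 to 7234 genes were seen per cell, with a median of 5902.5. The cell with 7234 genes was the mean of 2 libraries. The cell with 1316 genes gave 85.1% of its TPM to a single gene, Gm10925, against a median of 8.82%, and many results below are also given without it. Epithelial markers were present: Epcam, Cdh1, Krt8 and Krt18 were each seen in all 50 cells. Of the immune markers 4 of 8, among them Ptprc, were seen in no cell, as were 3 of 5 endothelial and 4 of 6 fibroblast markers. The same held for 5 of 7 colonocyte, 4 of 6 enteroendocrine and 3 of 5 tuft cell markers. All 5 Paneth cell markers were seen in some cells, and their mean log2(TPM + 1) ran from 0.19 to 14.2 (median 2.27). Of 7 goblet cell markers only Clca1 was seen in no cell, and their mean ran from 0 to 3.94. Whether such RNA came from other cells was not tested.

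In the nucleolus, RNA polymerase I transcribes the precursor of the large ribosomal RNAs. Small nucleolar RNAs (snoRNAs) carried by box C/D and box H/ACA proteins guide its modification, and sets of assembly factors cut and fold it into the small and large subunits. The transcription factor MYC is known to bind E-boxes near many of these genes, and dividing intestinal crypt cells make ribosomes at a high rate. Prox1, named in the title of the study beside quiescent cancer stem cells, encodes a homeodomain transcription factor.

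To show what the promoters share, RefSeq sequences (mouse build GRCm38.p6, from 250 bases before to 50 after the start of each gene) were searched on both strands for short motifs, which were chosen after the sequences had been seen. An entry was found for 34 of the 40 genes, all but Fbl, Rrs1, Npm1, Rrp12, Gnl2 and Bop1. The canonical E-box, CACGTG, stood in 7 of the 34 (20.6%), in 8.09% of the promoters of all 27025 genes in that collection and in 12.2% of those of the genes tested below. These are the 7 members set beside Myc later on. Each is printed 5′ to 3′ on the strand of its gene, with the E-box in capitals.
Nop2: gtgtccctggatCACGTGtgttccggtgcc
Pes1: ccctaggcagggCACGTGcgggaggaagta
Tsr1: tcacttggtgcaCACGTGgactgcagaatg
Utp18: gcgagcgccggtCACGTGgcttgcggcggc
Utp20: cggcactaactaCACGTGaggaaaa
Utp4: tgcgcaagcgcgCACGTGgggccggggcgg
Wdr43: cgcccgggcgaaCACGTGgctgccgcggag
The motif begins 60 bases before the start of Nop2 and 37 after that of Utp20, counting the first of the 50 downstream bases as 0. The positions are chr6:125131811-125131840 (+) for Nop2, chr11:3963965-3963994 (+) for Pes1, chr11:74898092-74898121 (+) for Tsr1 and chr11:93885769-93885798 (-) for Utp18. They are chr10:88826765-88826789 (-) for Utp20, chr8:106893643-106893672 (+) for Utp4 and chr17:71616220-71616249 (+) for Wdr43.

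Another motif, CCGGAAGT, is of the type bound by ETS factors, and also stood in 7 of the 34 promoters, against 4.31% of all genes and 10.7% of those tested. Nhp2 and Gar1, subunits of the same box H/ACA particle, carry it on opposite strands. Their stretches are shown with the motif in capitals (for Gar1 it reads as its reverse complement).
Nhp2: cacttgaaaacCCGGAAGTgatgtcggagg
Gar1: cgcgccgccacACTTCCGGaaacgtcgcgt
These lie at chr11:51619739-51619768 (+) for Nhp2 and chr3:129831422-129831451 (-) for Gar1. A motif of the type bound by NRF1 was found in 7 promoters (Ddx10, Nop2, Rrp9, Utp15, Utp4, Wdr12 and Wdr43), against 5.19% of all genes and 12.9% of those tested. None of these matches overlaps an E-box, and in Utp4 the NRF1-type match lies just before it, within the printed stretch. CCAAT stood in 12 members (35.3%), close to 41.1% over all genes, and TATAAA in 2 members, Dkc1 and Pes1 (5.88% against 15.7%). The median ratio of observed to expected CpG in these promoters was 0.858, against 0.813 for tested genes and 0.415 for all. A match describes letters in a window, and nothing in these files measures binding there.

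A further shared feature is that 6 of the 40 genes (15%) hold snoRNA genes in their introns, against 1.48% of the protein-coding genes tested and 1.06% of all those in the table. Ncl holds Snord82, Nop56 holds Snord110, and Nop58 and Wdr43 hold 3 snoRNAs each. Tsr1 holds 2 and Dkc1 holds 1, so 11 snoRNAs lie within members. The members lie on 17 chromosomes.

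The members were widely but unevenly detected. No member was seen in all 50 cells. The median member was seen in 36.5 cells, against 18 cells for table genes seen at least once. A median of 28 members was seen per cell (SD 5.75, 50 cells), from 7 in the cell with 1316 genes, and 15 was the lowest count without that cell. The members together took a median of 0.246% of a cell's TPM, from 0.0522% to 0.570%. Both ends came from cells with few genes seen, 3935 for the lowest share and 3151 for the highest. The cell with 3151 genes, where 15 members were seen, also held the highest values of Nop10 and Nhp2, among others. Of the members' TPM over all cells 69.8% came from 6 genes whose median was 100 TPM or more: Npm1, Nop10, Nhp2, Nop56, Polr1c and Ncl. Another 15 members had medians from 10 to 100 TPM, 12 from 1 to 10 TPM and 7 under 1 TPM. The cell with 1316 genes had the highest value of 3 members, Wdr43, Rrp1 and Polr1c, and listed 25 others at 0. The dot plot of single cells shows this spread, with many cells near 0 for the scarcer members.

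**Figure D1:**
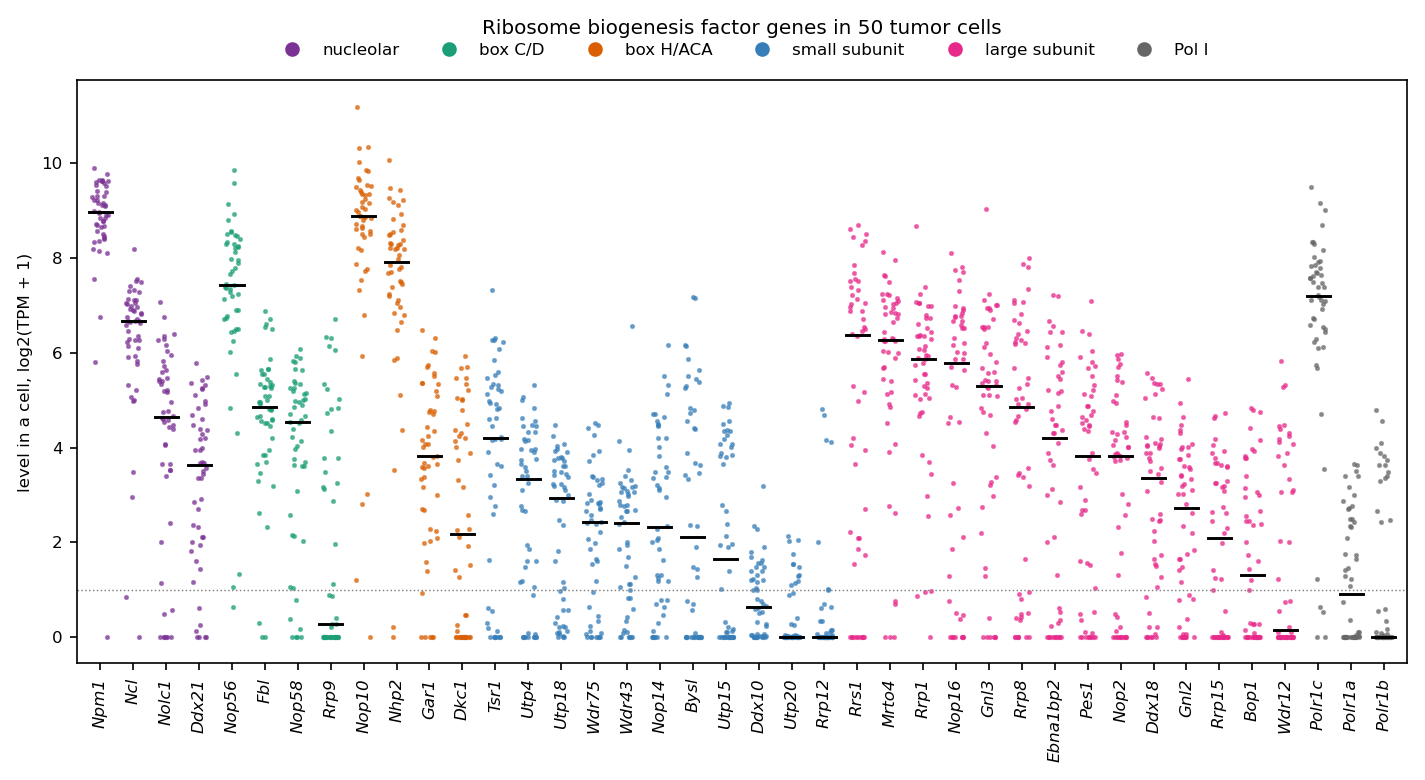
Level of each of the 40 ribosome biogenesis factor genes in each of 50 tumor cells, as log2(TPM + 1), grouped by role. Each dot is a cell, the black line is the median and the dotted line marks 1 TPM. Npm1 and Nop10 have the highest medians (499 and 470 TPM), and Rrp12 reached 1 TPM in 6 cells.

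Among the abundant nucleolar proteins, Npm1, a histone and ribosome chaperone that exports subunits, was at 0 TPM in the cell of 1316 genes, 499 TPM in the median cell and 963 TPM in the highest. It was seen in the other 49 cells, at 54.7 TPM or more. Without that cell the lowest values of Nop10, Ncl and Nhp2 were 1.29, 0.79 and 0.15 TPM. Ncl, nucleolin, which binds the nascent ribosomal RNA, ran from 0 through a median of 101 to 291 TPM, in 48 cells. Nolc1, which chaperones snoRNA particles, had a median of 24.1 TPM and a highest value of 134, in 42 cells. Ddx21, an RNA helicase, had a median of 11.3 TPM and a highest of 54.3, in 43 cells. The medians of Npm1 and Ddx21 thus lay far apart although both genes were seen in most cells.

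The box C/D proteins methylate ribosomal RNA. Nop56, a core scaffold protein, ran from 0.54 through 173 to 930 TPM and was seen in 49 cells. Its partner Nop58 ran from 0 through 22.1 to 67.2 TPM, in 43 cells, and Fbl, the methyltransferase fibrillarin, from 0 through 28.1 to 117 TPM, in 47 cells. Rrp9, which binds the U3 snoRNA, was seen in only 21 cells, with a median of 0.20 TPM and a highest value of 104. The box H/ACA proteins change uridine to pseudouridine. Nop10 and Nhp2, small subunits of that particle, had medians of 470 TPM (0 to 2346) and 241 TPM (0 to 1070), in 49 and 48 cells. Gar1 had a median of 13.1 TPM (0 to 88.2, 44 cells) and Dkc1, the catalytic subunit, of 3.52 TPM (0 to 59.8, 30 cells). The enzyme was thus listed lower than the small proteins it works with.

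Small subunit factors had low levels. Tsr1, a GTPase-like late assembly factor, was the highest by median at 17.4 TPM (0 to 160, 37 cells), followed by Utp4, a UTP-A scaffold protein, at 9.06 TPM (0 to 38.9, 38 cells). Utp18, Wdr75, Wdr43, Nop14, Bysl and Utp15, scaffold and assembly proteins, had medians between 2.17 and 6.69 TPM. Wdr43 reached 10 TPM in 4 cells, with 93.5 TPM in the cell of 1316 genes and 16.7 TPM as the highest value elsewhere. The helicase gene Ddx10 (median 0.55 TPM, highest 8.13) and the large scaffold gene Utp20 (median 0, highest 3.37) never reached 10 TPM. Rrp12, a late export and maturation factor, reached 1 TPM in 6 cells, with a highest value of 27.2 TPM, and was too rarely seen to be tested below.

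Large subunit factors spanned a wider range. Rrs1, needed for the 5S particle, had the highest median at 81.6 TPM (0 to 413, 40 cells), and Mrto4, a factor related to ribosomal stalk proteins, had 76.6 TPM (0 to 278, 45 cells). Rrp1, a 60S processing factor, had 57.8 TPM (0 to 409, or to 166 without the cell of 1316 genes, 46 cells), and Nop16 had 53.9 TPM (0 to 275, 38 cells). Gnl3, nucleostemin, a nucleolar GTPase known from stem cells and tumors, ran from 0 through 38.4 to 529 TPM, in 43 cells. The medians of 8 others lay between 1.5 and 28.1 TPM: the methyltransferase gene Rrp8, the processing factors Ebna1bp2 and Rrp15, the helicase gene Ddx18, the GTPase gene Gnl2, and Nop2, Pes1 and Bop1. Wdr12, which forms the PeBoW complex with Pes1 and Bop1, had the lowest median of the group at 0.12 TPM and was seen in 21 cells.

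Of the RNA polymerase I subunits, Polr1c, which RNA polymerase III also uses, was seen in 46 cells with a median of 146 TPM (0 to 729, or to 575 without the cell of 1316 genes). Polr1a, the catalytic subunit, was seen in 25 cells with a median of 0.89 TPM (0 to 11.6), and Polr1b, the other large subunit, in 16 cells with a median of 0 (highest 26.5). The subunit used by both polymerases was therefore listed far above the Pol I-specific pair.

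To set the members against other genes, each cell was given the mean of log2(TPM + 1) over the 40 members. This member mean ran from 1.01 to 4.73, with a median of 3.61 (SD 0.71, 50 cells). The cell with 1316 genes was the lowest at 1.01, and the next 2 cells stood at 2.15 and 2.53. The 2 highest cells, at 4.73 and 4.63, both expressed replication genes at high levels. In the first Myc stood at 66.97 TPM, and in the second at 0. Spearman's rank correlation (rho) of log2(TPM + 1) over the 50 cells is used below, over the 9166 genes seen in at least 10 cells, 39 members among them. A rho of 0.3 or more, or of -0.3 or less, is counted, and the share of tested genes that reach the same value is given as the background, leaving out the genes that make up the measure. The member mean had a rho of 0.59 with the number of genes seen, so values given the genes seen (a partial rho) stand beside the plain ones. The cells also share the index sets of their libraries, and values are repeated in 32 cells with i7 indexes from N704 up to N707 and in 18 with N708 up to N710. The cell of 1316 genes and all 6 cells combined from library pairs are among the 18. The labels do not say what these index sets stand for. The sets also differ in replication gene levels, as given below, so they are not a repeat in like cells.

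The members went together only loosely. Over the 741 pairs of 39 members the median rho was 0.11 (0.07 given the genes seen), against 0.05 (0.02) over the 42003195 pairs of all tested genes. A rho of 0.3 or more was found for 80 pairs (10.8%), against 4.63% of all pairs. Pairs of the same role and of different roles both had a median of 0.11. By role the median was 0.30 for the 6 pairs of abundant nucleolar genes and 0.24 for the 6 of box H/ACA genes, against 0.12 for box C/D (6 pairs), 0.09 for large subunit (91) and 0.04 for small subunit genes (45). The highest rho was that of Gnl3 with Nop2, a ribosomal RNA methyltransferase, at 0.64 (0.69 and 0.45 in the sets of i7 indexes). Wdr75 with Bysl had 0.51 (0.56 and 0.31), Npm1 with Nhp2 0.51 (0.46 and 0.58) and Ncl with Npm1 0.50 (0.35 and 0.66).

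Partners in a known complex did not all move together. Nop56 and Nop58, which bind as a pair on the same snoRNA, had a rho of 0.46, whereas Fbl had 0.14 with Nop58 and 0.10 with Nop56. In the box H/ACA particle the rho ran from 0.12 for Dkc1 with Nop10 to 0.33 for Nhp2 with Nop10. The PeBoW partners were near 0: -0.02 for Pes1 with Bop1, 0.03 for Pes1 with Wdr12 and -0.01 for Bop1 with Wdr12. Polr1a had -0.07 with Polr1b and 0.26 with Polr1c. The lowest pair was Nop2 with Rrp1 at -0.43. Set against the mean of the other members, 38 of the 40 were positive and 18 reached 0.3, with a median of 0.29. With the mean of all 40 members, 14.2% of the genes outside the set reached 0.3, with a median of 0.11. Rrp1 (-0.15) and Polr1c (-0.01) were the 2 negative ones, and stood at -0.09 and 0.05 without the cell of 1316 genes. Many members were seen in part of the cells, and in sparse values a low rho cannot be told apart from weak detection.

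**Figure D2:**
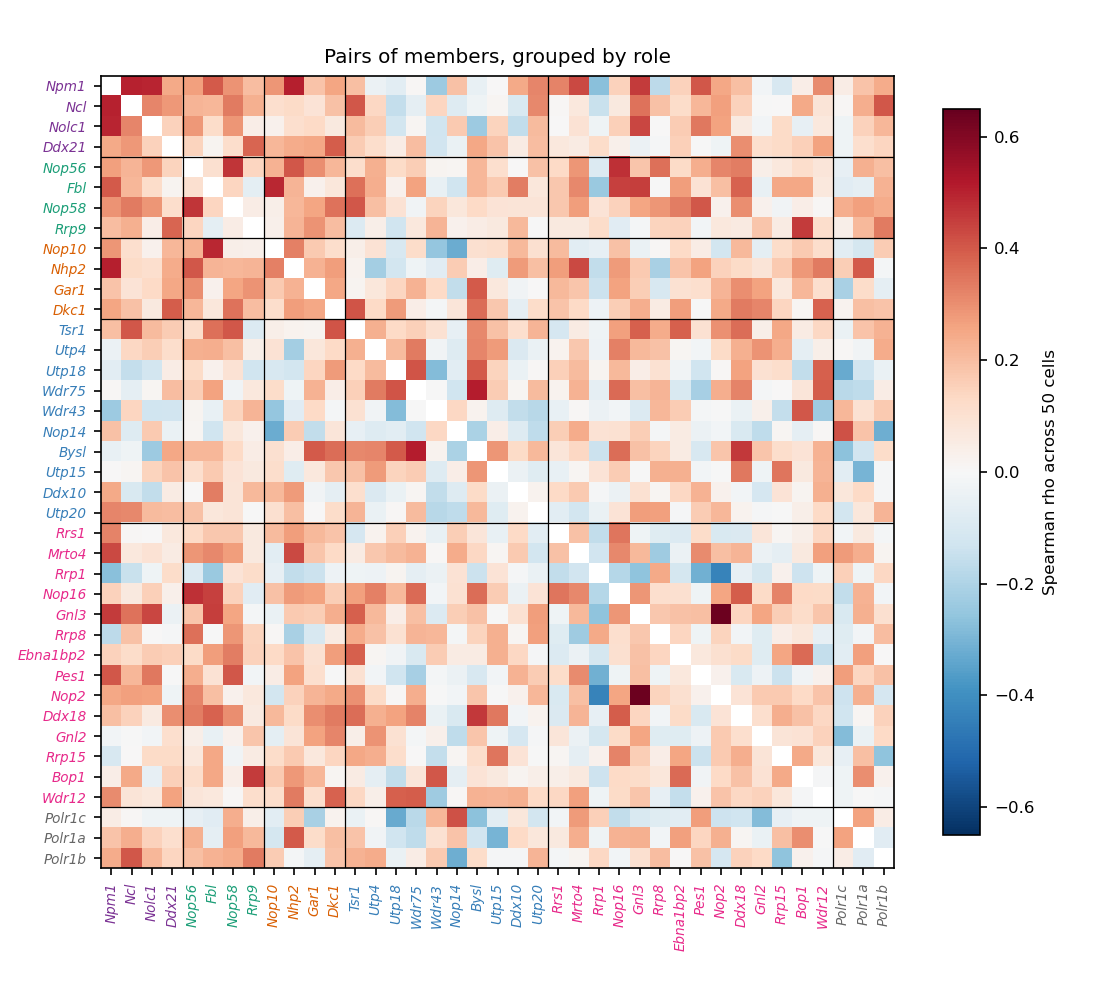
Spearman's rho between each 2 of the 39 tested members over 50 cells, ordered by role, on a colour scale from negative to positive. The median of the 741 pairs is 0.11, the highest is Gnl3 with Nop2 (0.64), and the block medians run from 0.04 for small subunit genes to 0.30 for abundant nucleolar genes.

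Replication genes gave the closest relation among the targets set by the rule. The S phase list holds 25 genes of DNA replication, such as Mcm2, a helicase subunit, and Tyms, which makes thymidylate. Its mean ran from 0.27 to 6.18 log2 units, with a median of 1.59. Its rho with the member mean was 0.77 (Pearson's r 0.68), 0.61 given the genes seen and 0.65 given the G2/M list described below. It was 0.69 and 0.72 in the sets of i7 indexes, 0.75 without the cell of 1316 genes and 0.73 without the 2 cells whose member mean lay farthest from its median. The S phase mean itself had a rho of 0.68 with the genes seen. The mean of the 8 immune markers, which ran from 0 to 1.39 log2 units, had a rho of -0.31 with the member mean (-0.61 and -0.05 in the sets of i7 indexes). Cd68 was the only one of them seen in at least 10 cells, and the part of such RNA in the members' values was not tested.

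The S phase mean had a gap between 2.34 and 3.26, found after the values were seen, with 35 cells below it and 15 above. Most of the 15 have i7 indexes from N708 up to N710, whereas most cells with N704 up to N707 lie below the gap. Below the gap the member mean had a rho of 0.64 with the S phase mean (0.52 given the genes seen, and 0.61 without the cell of 1316 genes). Above the gap the rho was -0.07. The relation was thus present among the cells of low replication gene levels. It was not seen among the 15 cells of high levels, but so few cells, split on the S phase mean itself, cannot show that it is absent there. The member mean had a median of 3.28 (1.01 to 4.40) in the 35 cells and 4.17 (3.35 to 4.73) in the 15, with a median of 5724 and 6325 genes seen. The ranges overlapped. One cell below the gap, with an S phase mean of 1.15, had a member mean of 4.40 and 34 members seen, so high member levels also occurred at low levels of replication genes.

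**Figure D3:**
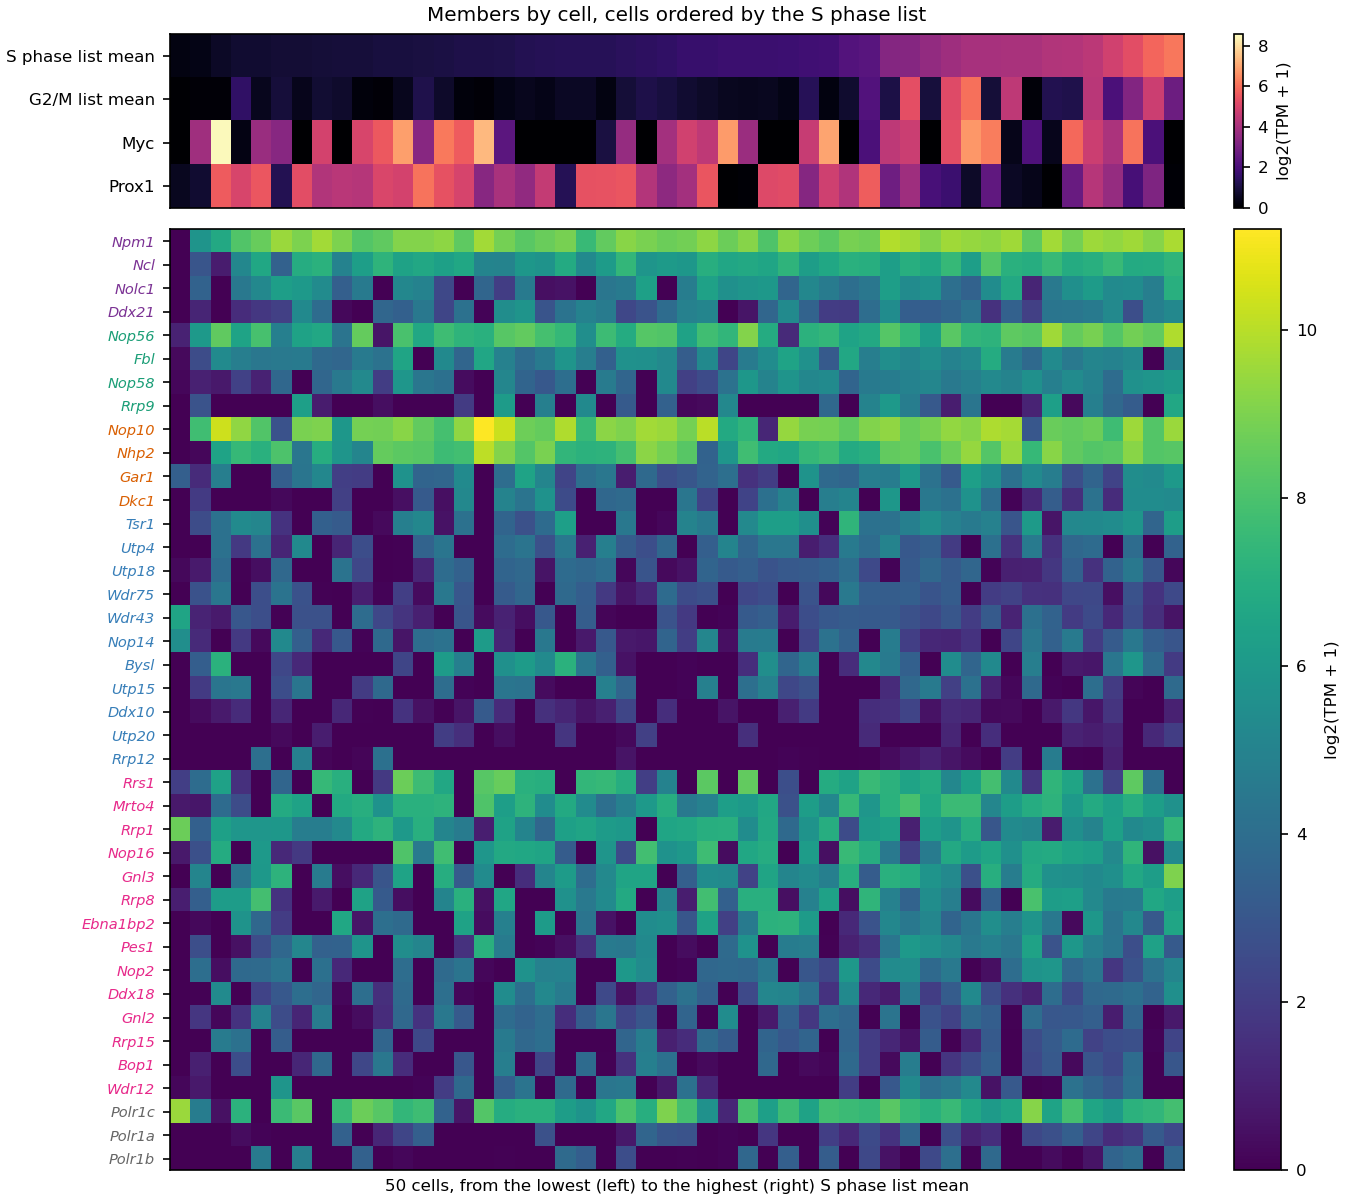
Level of the 40 members, as log2(TPM + 1), in 50 cells ordered from low to high S phase mean, with members in rows by role and the S phase mean, G2/M mean, Myc and Prox1 in strips above. Npm1, Nop10 and Nhp2 are high in nearly all cells, whereas Nop58 and Dkc1 are filled in more often toward the high end of the S phase mean.

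Member by member, 16 of 39 (41.03%) had a rho of 0.3 or more with the S phase mean, against 14.9% of all genes tested. None was at -0.3 or less, where 0.886% of genes were. Given the genes seen, 14 members were at 0.3 or more, against 5.60%, with Nop14, Nop16 and Nop2 among them in place of 5 of the 16. In the sets of i7 indexes the counts were 9 of 38 (background 13.8%) and 17 of 39 (background 25.9%). The median member stood at 0.25 and the median gene at 0.11, and 38 members were positive.

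Genes of abundant nucleolar proteins and of snoRNA proteins made up 10 of the 16, and 6 of the 14 given the genes seen, where Nolc1, Ddx21, Rrp9 and Gar1 fell short. These genes were also seen in more cells (role medians of 45 to 46) than large subunit (36) and small subunit genes (33). By the mean of each role, large subunit genes had the highest rho, 0.68 (0.54 given the genes seen). Abundant nucleolar genes had 0.60 (0.32), box C/D 0.65 (0.42), box H/ACA 0.52 (0.31), small subunit 0.35 (0.28) and Pol I 0.43 (0.42). By the plain rho all 4 abundant nucleolar genes reached 0.3: Ncl (0.60), Npm1 (0.48), Nolc1 (0.38) and Ddx21 (0.34). So did 3 of 4 box C/D genes, Nop58 (0.62), Nop56 (0.49) and Rrp9 (0.35), and 3 of 4 box H/ACA genes, Dkc1 (0.48), Nhp2 (0.43) and Gar1 (0.35). Fbl stood at 0.25 and Nop10 at 0.09. Of 14 large subunit genes 4 reached it: Gnl3 (0.46), Ebna1bp2 (0.38), Pes1 (0.33) and Mrto4 (0.31). Nop16 (0.29) and Nop2 (0.27) lay just short. Of 10 tested small subunit genes only Tsr1 (0.44) did, and their median was 0.15. Polr1a (0.45) reached it, whereas Polr1b stood at 0.27 and Polr1c at 0.06. Rrp1 (-0.07) was the single negative member. Without the cell of 1316 genes 14 members reached 0.3 (background 12.1%), since Pes1 (0.29) and Mrto4 (0.27) did not, and Wdr75, Utp15, Gnl2 and Rrp1 lay between -0.018 and -0.0072.

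Npm1, Nolc1, Nop58, Dkc1, Nhp2, Gnl3 and Ebna1bp2 reached 0.3 in both sets of i7 indexes. The share of all tested genes that did so in both sets was not counted, so these members have no background beside them. Ddx21 went from 0.34 to -0.02 given the genes seen, while Gnl3 went from 0.46 to 0.48 and Ncl from 0.60 to 0.51. The 6 snoRNA host genes had a median rho of 0.48 with the S phase mean (0.15 for Wdr43 to 0.62 for Nop58). The 34 other members had 0.23 (-0.07 to 0.48). Hosts were seen in a median of 40 cells and the others in 35.5. The difference between hosts and the other members was not tested.

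**Figure D4:**
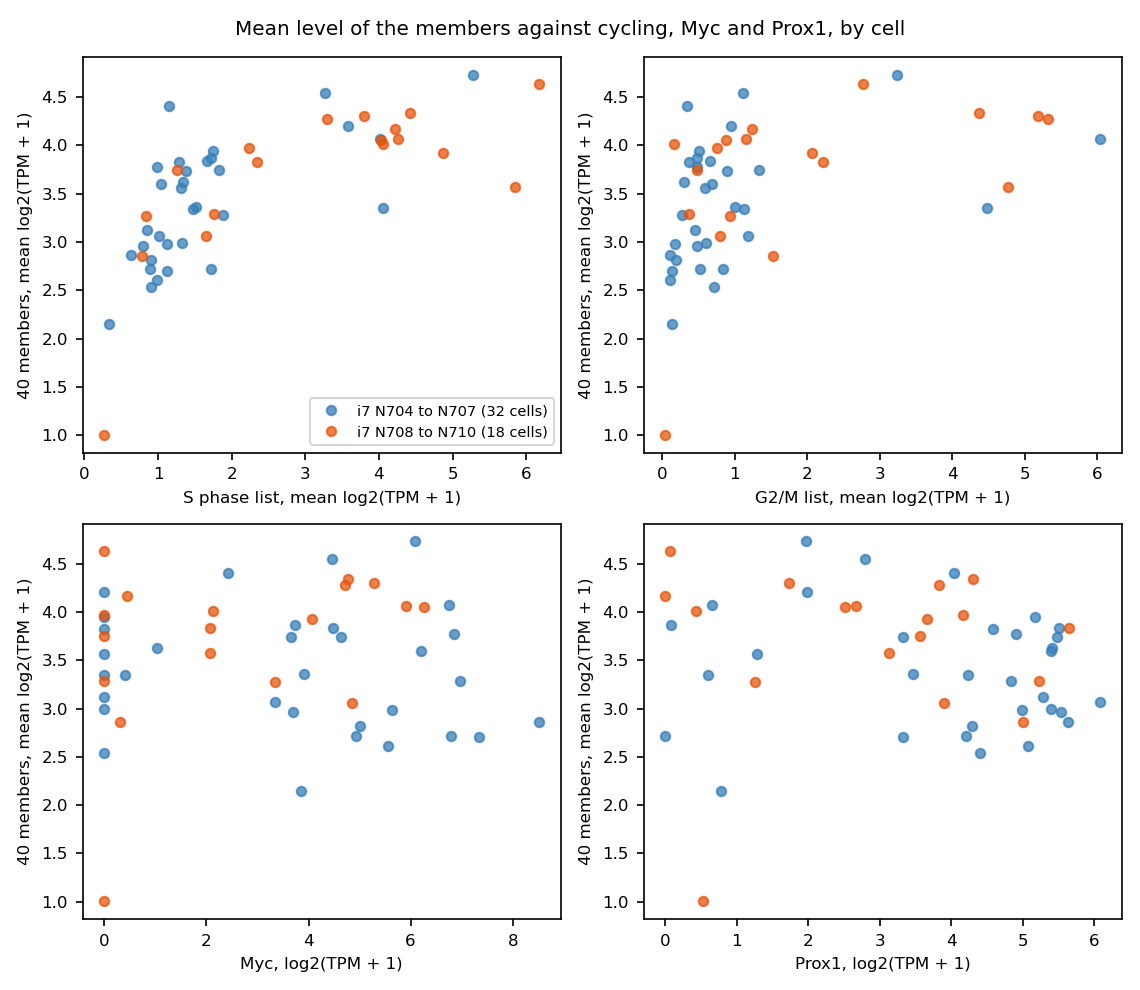
Member mean, as the mean of log2(TPM + 1) over 40 members, against 4 measures on the horizontal axes: the S phase mean, the G2/M mean, Myc and Prox1, all on the log2(TPM + 1) scale. Each dot is 1 of 50 cells, coloured by set of i7 indexes. The rank correlation is 0.77 with S phase genes, 0.53 with G2/M genes, -0.03 with Myc and -0.28 with Prox1.

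Mitotic genes gave a weaker relation. The G2/M list holds 30 genes of mitosis, with a mean from 0.04 to 6.04 log2 units and a median of 0.73. Its rho with the member mean was 0.53, 0.30 given the genes seen and 0.10 given the S phase mean, with which it had a rho of 0.63. Within the 35 cells below the gap in S phase levels it was 0.31, and within the 15 above it was 0.08. For Mki67 and Top2a, markers of proliferation, the rho was 0.43 and 0.39, and 0.03 for each given the S phase mean.

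With the G2/M mean, 11 of 39 members reached 0.3 (background 14.8%) and none reached -0.3 (background 1.60%). In the sets of i7 indexes 8 of 38 (background 13.7%) and 14 of 39 (background 30.2%) reached 0.3. Given the genes seen 5 members did, against 7.05%: Npm1, Nolc1, Polr1a, Nhp2 and Mrto4. The median member stood at 0.21 and the median gene at 0.10. Npm1 had the highest value, 0.61 (0.60 and 0.63 in the sets of i7 indexes), followed by Polr1a (0.48), Nolc1 (0.47) and Nhp2 (0.45). Npm1 and Nolc1 thus had higher values with mitotic than with replication genes, whereas Nop58 (0.34 against 0.62) and Dkc1 (0.18 against 0.48) had lower ones.

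Myc did not show this relation over all cells. It was listed from 0 to 366 TPM, with a median of 12.2 TPM, and was seen in 34 cells. Its rho with the member mean was -0.03 over all cells (-0.14 given the genes seen). In the sets of i7 indexes the sign differed, at -0.17 in 32 cells and 0.34 in 18. The sets also differ in S phase levels, and the cause was not tested. Below the gap in S phase levels it was -0.26 and above it 0.15. Myc had a rho of 0.03 with the S phase mean itself.

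No member reached 0.3 with Myc (background 3.01%) and none reached -0.3 (background 1.68%). Given the genes seen, Ddx21 alone reached -0.3, at -0.40 (background 2.71%). Without the cell of 1316 genes its plain rho was -0.32, past that threshold, and the share of all genes in that setting was not counted. In the sets of i7 indexes its plain rho was -0.36 and -0.10. Of the 39 members, 24 were positive and 15 negative, and the median was 0.03, beside 0.02 over all genes. Nop10 (0.21) and Nhp2 (0.20) were the highest and Ddx21 (-0.26) the lowest. Among cells with N704 up to N707, 0 of 38 members reached 0.3 (background 4.52%), and with N708 up to N710, 7 of 39 did (background 23.3%). Both shares lay below the share of all genes. The 7 members with an E-box printed above had a median rho with Myc of -0.06 (-0.20 for Utp4 to 0.11 for Pes1), and the 27 with a promoter entry and no E-box had 0.03. The ranges overlapped, and transcript levels do not measure MYC protein.

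Prox1 was listed from 0 to 66.8 TPM, with a median of 14.7 TPM, and was seen in 41 cells. Its rho with the member mean was -0.28 (Pearson's r -0.12, and -0.28 given the genes seen), and -0.34 without the cell of 1316 genes. Prox1 had a rho of -0.42 with the S phase mean. Given the S phase mean, the rho of Prox1 with the member mean was 0.07. Within the 35 cells below the gap in S phase levels it was 0.14, and within the 15 above it 0.00. With the genes seen held fixed, it was 0.07 below the gap and -0.24 above, so the value in the 15 cells changed with that setting. The 2 cells highest in the member mean had 2.92 and 0.05 TPM of Prox1, and the cell of S phase mean 1.15 and member mean 4.40 had 15.5 TPM.

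With Prox1, 2 members were at -0.3 or less, Nop58 (-0.35) and Nhp2 (-0.30), against 3.26% of genes, and none was at 0.3 or more, against 8.58%. Given the genes seen, Nop58 alone remained (background 2.84%). In the sets of i7 indexes, 5 of 38 (background 6.34%) and 6 of 39 (background 5.24%) were at -0.3 or less, with Nhp2 in both. The share of all genes in both was not counted. Without the cell of 1316 genes 7 members were at -0.3 or less: Nop58 (-0.40), Nhp2 (-0.37), Npm1 (-0.36), Nop56 (-0.35), Mrto4 (-0.35), Nop2 (-0.31) and Pes1 (-0.31). The share of all genes was then 4.87%, and over all alternatives the count ran from 0 to 8, so it was not stable. Npm1 (-0.30 when rounded), Nop56 (-0.29) and Mrto4 (-0.29) lay just outside. The median member stood at -0.06 and the median gene at 0.05, and 26 members were negative. Ddx21 (0.14), Utp4 (0.13) and Rrs1 (0.12) had the highest positive values. The plot of members against the background shows these values together.

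**Figure D5:**
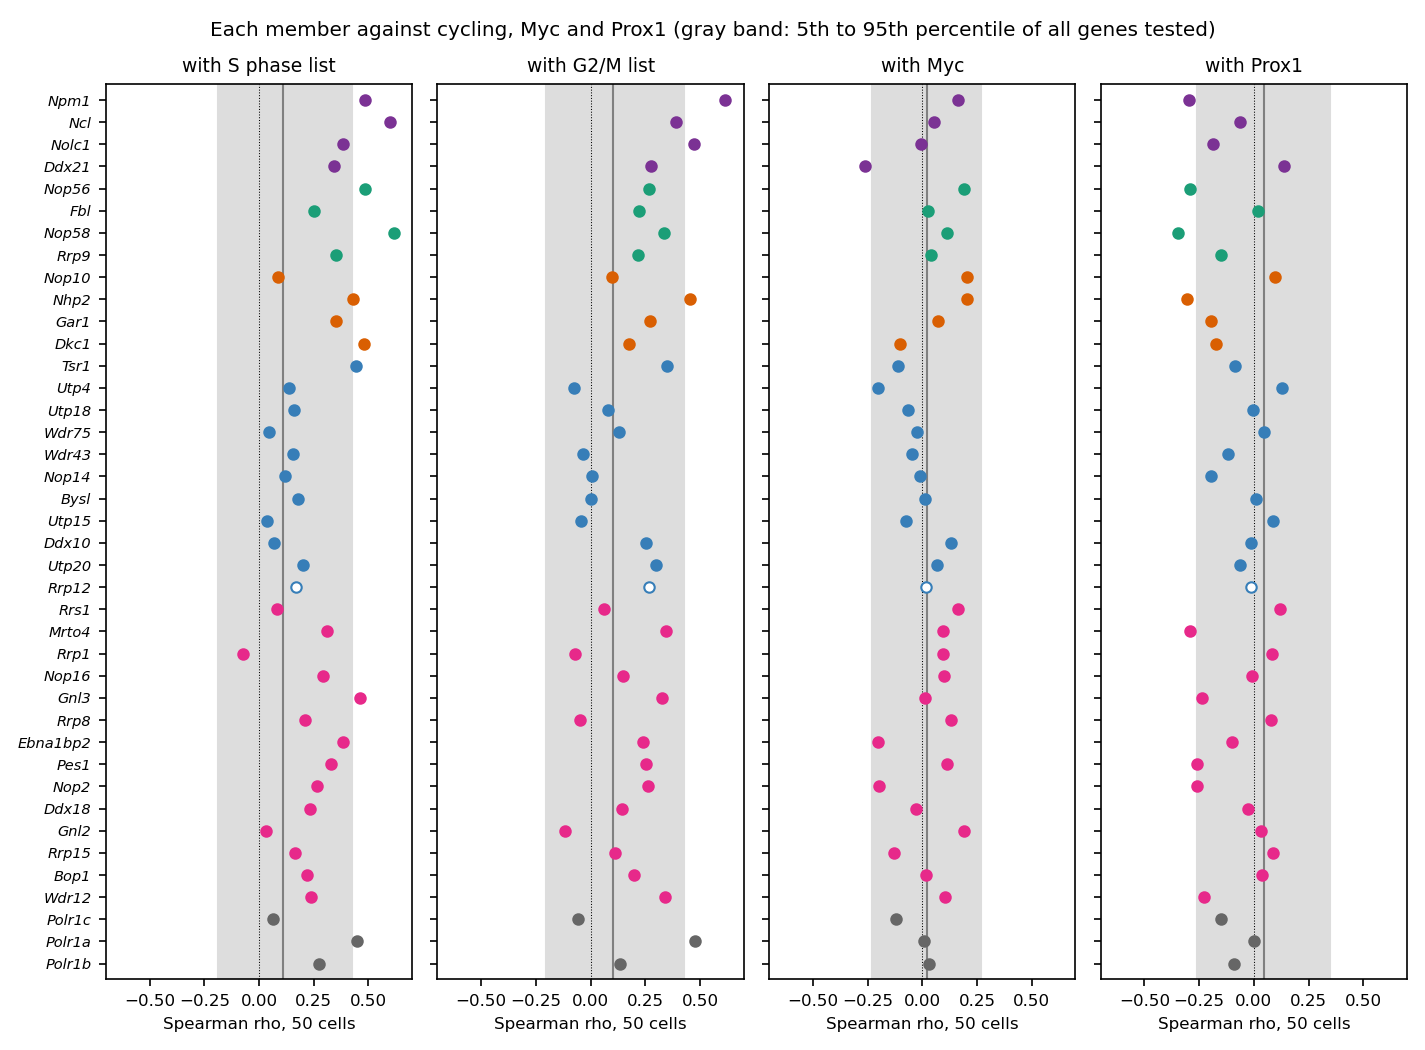
Spearman's rho of each member with the S phase mean, the G2/M mean, Myc and Prox1 over 50 cells. Gray bands span the 5th to 95th percentile of the 9166 tested genes, gray lines are their medians, and the open circle is Rrp12, which was not tested. With the S phase mean 31 of 39 members lie to the right of the gray line, with the G2/M mean 27, with Myc 20 and with Prox1 8.

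Other ribosome biogenesis genes, from a list of 103 of which 99 are in the table and 95 were tested, followed the member mean. A rho of 0.3 or more with the member mean was found for 32 (33.7%), against 14.2% of all genes, and none was at -0.3 or less, against 0.482%. Given the genes seen 15 did, against 5.24%. The median was 0.25, beside 0.11 over all genes, and the list mean had a rho of 0.83 with the member mean. The highest were Exosc8, an exosome subunit (0.64), Brix1, a 60S assembly factor (0.63), and Noc2l (0.55). The lowest were Sbds, which acts late on the 60S subunit (-0.05), and Taf1b (-0.07) and Taf1a (-0.08), subunits of the Pol I initiation factor SL1. The small subunit part of the list (36 tested) had 15 genes at 0.3 or more, the large subunit part (33) had 8, the Pol I part (14) 5 and the exosome part (12) 4.

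The products that these factors assemble are the ribosomal proteins. Over 77 cytosolic ribosomal protein genes the list mean had a rho of 0.41 with the member mean (0.29 given the genes seen). Gene by gene 38 of 77 reached 0.3, against 14.2% of all genes, with a median of 0.29 (0.24 given the genes seen). Rpsa (0.66) and Rpl12 (0.57) were the highest, and Rpl17 (-0.02) and Rpl7 (-0.15) the lowest. A list of 22 genes of growth and nucleotide synthesis, many known as MYC targets, had 17 at 0.3 or more, against the same 14.2%. The rho of its mean was 0.75, 0.60 given the genes seen and 0.38 given the S phase mean. Ranbp1 (0.63) and Eif5a (0.57) led it, and Odc1 (0.24) and Cad (0.21) were the lowest.

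Among all tested genes outside the members with the same sign in both sets of i7 indexes, the 10 closest to the member mean included 4 genes of DNA replication or its upkeep, of which Tyms and Mcm2 belong to the S phase list. These were Dnmt1 (0.69), the maintenance DNA methyltransferase, Tyms (0.69), Mcm2 (0.65) and Cdt1, a licensing factor (0.65). The others were Ptma (0.68), Slc9a7 (0.68), Rpsa (0.66), Exosc8 (0.64), Brix1 (0.63) and Naa10 (0.63), an N-terminal acetyltransferase subunit. The 10 lowest were Farp1 (-0.45), Slc25a51 (-0.42), Abca1 (-0.41), Npb (-0.40), Insig2 (-0.39), Tbx20 (-0.39), Ranbp10 (-0.38), Rela (-0.38), Cdh13 (-0.37) and Ocln (-0.37). Npb and Cdh13 were each seen in 10 cells, and Tbx20 stood at -0.08 and -0.65 in the sets of i7 indexes. Given the S phase mean, the 10 lowest ran from -0.38 for Insig2 to -0.01 for Rela, and the 10 closest from 0.18 for Mcm2 to 0.58 for Brix1. Abca1 exports cholesterol, Insig2 restrains sterol synthesis and Ocln is a tight junction protein.

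Some levels may include reads from other genes. Exons of 15 members overlap those of a gene on the opposite strand, such as Nop56 with Idh3b, Gnl3 with Pbrm1, Nhp2 with Rmnd5b and Bysl with Ccnd3, and no use of strand is stated. Near-identical copies (95% identity over 300 bases or more) exist for 8 members, with 5 copies for Npm1, 4 for Nop56 and 3 for Ddx18. The table has a row for none of the 20 copies. Without the 8 members that have a copy, the rho of the member mean was 0.74 with the S phase mean and 0.48 with the G2/M mean. It was then -0.06 with Myc and -0.22 with Prox1, in a setting that was not planned beforehand. How far reads from copies or overlapping genes enter these values was not tested.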

How the data were processed

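Single-cell RNA was measured in 56 libraries. The deposited values are TPM made by the authors. The submitters' processing notes name RSEM 1.2.31 with Bowtie2 2.2.9, bcl2fastq 1.8.4 and the build GRCm38.p4. Not given in the sources used here were settings, annotation release and strand. Depth is not kept in TPM. Index pairs in the column names matched all columns to samples, and symbols came from GENCODE M21 (24235 of 24410 IDs).

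Libraries with Pearson's r above 0.9 were averaged. Spearman's rho of log2(TPM + 1) was computed over 50 cells with Python 3.11.15, numpy 2.4.6, pandas 2.3.3 and scipy 1.17.1, for genes seen (1 TPM or more) in 20% of cells, and the scripts were tested on simulated data. Near-identical transcripts were found with blastn 2.17.0. With 1 group from 1 mouse, no test was made. Genes named were all members, Myc, Prox1, Mki67 and Top2a, the 10 genes highest and 10 lowest by rho with the member mean with the same sign in both sets of i7 indexes, the 3 highest and lowest other biogenesis genes and the 2 highest and lowest of other lists. Single markers, promoter motifs and the gap in the S phase mean were chosen after values were seen. Members and lists were chosen with earlier results of these data known. Alternatives were other pseudocounts, thresholds, filters and coefficients, partial rho, and leaving out cells or i5 indexes.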

Additional observations from a re-analysis of the deposited data

How the results depend on the processing

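The rho of the member mean with the S phase mean was 0.77, and became 0.61 given the genes seen, 0.65 given the G2/M mean and 0.64 in the 35 cells below the gap in the S phase mean. In the 15 cells above the gap it was -0.068, with Pearson's r at 0.025, so its sign is not settled there. These splits, and the partial rho given the G2/M mean, were chosen after seeing the data, and the cause was not tested. The rho with the G2/M mean (0.53) became 0.30 given the genes seen, 0.10 given the S phase mean, 0.31 and 0.079 below and above the gap, and 0.66 without i5 index N508. With Myc (-0.03) it was -0.14 given the genes seen, -0.17 in cells with i7 indexes from N704 up to N707, 0.34 with N708 up to N710, and -0.26 and 0.15 below and above the gap. With Prox1 (-0.28) it was -0.12 by Pearson's r, -0.17 with N704 up to N707, 0.072 given the S phase mean, 0.14 and 0.0036 below and above the gap, -0.39 without i5 index N517 and -0.40 without the 2 cells whose member mean lay farthest from its median. Members at 0.3 or more with the S phase mean (16) numbered 9 at a rho of 0.4 (background 6.30%) and 9 with N704 up to N707 (13.8%). With the G2/M mean (11) they numbered 4 at a rho of 0.4 (6.10%), 5 given the genes seen (7.05%) and 6 without the 2 farthest cells (10.9%). With Myc (0) they numbered 7 with N708 up to N710 (23.3%) and 1 without i5 index N506 (4.37%). Members at -0.3 or less with Prox1 (2) numbered 0 by Pearson's r and at a rho of -0.4, 1 given the genes seen or without i5 index N504, N505 or N506, and 5 over all 56 libraries. They numbered 5 with N704 up to N707, 6 with N708 up to N710, 5 without i5 index N507, and 6 without N503, N508 or N517. Without the cell of fewest genes they numbered 7, and without the 2 farthest cells 8, while the background over these alternatives ran from 0.807% to 6.65%. Without the cell of fewest genes the rho of the member mean was 0.50 with the G2/M mean and -0.08 with Myc. In that setting 9 members reached 0.3 with the G2/M mean (12.1%), and the median over member pairs was 0.09. With detection at 10 TPM the median number of members seen per cell fell from 28 to 21. The median rho among member pairs (0.11, against 0.05 over all pairs of tested genes) ran from 0.07 to 0.13 over its 20 alternatives. The lowest was that given the genes seen, against 0.02 over all pairs. For the other alternatives the median over all pairs was not computed. Depth is unknown, so a member listed at 0 cannot be told apart from one below detection.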

Other observations

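Genes of other cell functions were set against the member mean in the same 50 cells. The mean of 13 genes of oxidative phosphorylation had a rho of 0.49, and 0.21 given the genes seen. Cycs, cytochrome c (0.47), and Atp5b, a subunit of ATP synthase (0.44), were the highest of them, and Cox4i1 (0.06) and Atp5c1 (-0.01) the lowest. The mean of 9 housekeeping genes had a rho of 0.47, and 0.22 given the genes seen, with Pgk1 (0.50) and Ppia (0.49) the highest and Actb (0.00) and B2m (-0.04) the lowest.

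The mean of 12 genes of the p53 response had a rho of 0.24, and 0.10 given the genes seen, with 1 gene at 0.3 or more (14.2% of all genes). Cdkn1a, a cell cycle inhibitor (0.32), and Gdf15 (0.27) were the highest, and Phlda3 (-0.07) and Bbc3 (-0.15) the lowest. The mean of 15 Wnt target genes had a rho of -0.03 (-0.15 given the genes seen), in which members of the list went different ways. Ccnd1, cyclin D1 (0.49), and Ascl2, a stem cell transcription factor (0.43), were positive, whereas Notum (-0.24) and Apcdd1 (-0.24), secreted and membrane inhibitors of Wnt, were negative. Given the genes seen, these 4 stood at 0.50, 0.45, -0.28 and -0.39. The mean of 11 genes of the Myc network had a rho of 0.08, and -0.10 given the genes seen. Mycl (0.25) and Mga (0.22) were the highest and Mxd4 (-0.16) and Mxd1 (-0.18) the lowest.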
